A study of Arabidopsis thaliana with 12 samples.

Results

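The genes described here encode 2 families of tyrosine-sulfated signalling peptides and the enzyme that sulfates them. They are RGF1 (AT5G60810), RGF2 (AT1G13620), RGF3 (AT2G04025) and RGF4 (AT3G30350), the precursor genes PSK1 (AT1G13590), PSK2 (AT2G22860), PSK3 (AT3G44735), PSK4 (AT3G49780) and PSK5 (AT5G65870), and the sulfotransferase gene TPST (AT1G08030), 10 of 32833 loci counted. The set was taken by gene name, but it was chosen by looking at measured values too: RGF4 and PSK5 had been selected on their difference between cut and uncut roots in these libraries. Values of the 10 genes in cut against uncut roots are therefore given as a description, with no test. RNA was sequenced from roots of 7-day-old Arabidopsis thaliana seedlings of the wild-type accession Col-0 in 12 libraries. Seedlings spent 1 h on plates with 50 µM CNQX, which blocks ionotropic glutamate receptors in animals, or on mock plates, and then lost about 130 µm of the root tip. The 4 CNQX cut libraries and the 4 mock cut libraries hold about 100 µm of root above the wound, taken at 30 min, 4 h, 14 h and 24 h with 1 library each. The 2 CNQX uncut and 2 mock uncut libraries hold about 100 µm of intact root tip from plants kept 14 h on plates of that treatment. The series text gives 16 h where the sample labels give 24 h, and the labels were followed. Cut and uncut tissue came from different positions along the root, so that excision and position cannot be told apart. Uncut roots also spent 14 h on CNQX or mock plates, whereas the cut roots had 1 h before excision and were then moved to new plates. The labels do not state if those plates held CNQX, so that in cut roots the length of exposure is not known here. The labels do not say whether libraries came from separate cultures, so the spread between replicate libraries may be technical. Only the uncut groups hold 2 libraries each. In cut roots, the spread behind the p values is how the difference between CNQX and mock libraries varied over the times.

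RGF peptides (root meristem growth factors) are secreted, bind leucine-rich repeat receptor kinases at the cell surface and keep PLETHORA transcription factors high in the root meristem, where they sustain stem cell identity and division. PSK (phytosulfokine) is a sulfated pentapeptide, found first as a growth factor released by cultured plant cells, that acts through the receptor kinases PSKR1 and PSKR2 in cell growth and in defence responses. Both peptide families depend on TPST, a Golgi enzyme that adds sulfate to tyrosine before the precursors are cut, and plants without it have short roots with disturbed stem cell niches.

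Libraries held 1575446 to 3302325 counts, and levels are given as CPM, counts scaled to a library total of 1e6. A floor of 3 counts equalled 0.908 to 1.90 CPM. The mock 24 h library stood apart. Its reads that did not align uniquely were 37.6% of reads, against 53.3% to 65.3% in the other 11 libraries, and its profile over genes correlated with the average of the rest at 0.761, against 0.892 to 0.962. Summed root cap markers (6 genes) reached 7.06 to 27.3 CPM in cut libraries and 57.2 to 188 CPM in uncut libraries, and stem cell niche markers (7 genes) 69.4 to 189 CPM in cut libraries and 146 to 267 CPM in uncut libraries. Differentiated root markers (7 genes) reached 15.3 to 614 CPM in cut libraries and 6.96 to 18.7 CPM in uncut libraries. SMB, a defining root cap factor, was at 0 in 6 of the 8 cut libraries and present in all 4 uncut ones. Other cap markers were less clear: CEL5 was counted in every cut library, at 2.82 to 25.7 CPM. Cut and uncut values of BRN1, BRN2 and RCPG overlapped. WOX5, which defines the quiescent centre, had no count in 3 of the 4 uncut tips and 1.27 CPM in the other. In cut libraries WOX5 had 0 to 5.27 CPM. The niche marker AGL42 had 3.94 to 24.7 CPM in cut libraries and 5.70 to 13.1 CPM in uncut ones. Not every niche marker was thus lower in cut libraries. The libraries hold mixed cells, so that fewer cells of a type and less RNA per cell cannot be told apart.

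The stretches of the genes that encode the active peptides are shown because they separate the families and show what can vary inside them. They were read from the RefSeq genome and annotation (build TAIR10.1), on the coding strand 5′ to 3′, with the codons of the mature peptide in capitals and up to 12 flanking bases in lower case. Each begins its peptide with the Asp-Tyr pair that TPST recognises, although in the PSK genes the Asp codon lies just outside the capitals. RGF1 (chr5:24466534-24466572, minus strand), RGF2 (chr1:4669184-4669222, plus strand) and RGF3 (chr2:1276902-1276940, minus strand) carry 39 peptide bases at the end of exon 3 of 3, directly before the stop codon. RGF4 (chr3:11960573-11960620, minus strand) carries 48 peptide bases in exon 5 of 5, and 6 further residues follow before the stop.
RGF1: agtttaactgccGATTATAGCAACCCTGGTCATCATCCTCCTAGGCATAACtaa
RGF2: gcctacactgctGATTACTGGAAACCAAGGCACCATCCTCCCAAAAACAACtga
RGF3: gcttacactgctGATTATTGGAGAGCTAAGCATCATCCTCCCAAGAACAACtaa
RGF4: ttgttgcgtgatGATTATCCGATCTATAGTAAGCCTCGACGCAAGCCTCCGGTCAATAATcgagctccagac
RGF2 and RGF3 are the closest pair, with 7 of 39 bases and 3 of 13 residues different. RGF1 differs from RGF2 at 13 bases and 5 residues, and from RGF3 at 12 bases and 6 residues.

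The 5 PSK genes all encode the same pentapeptide (tyrosine, isoleucine, tyrosine, threonine, glutamine) in 15 bases of the last exon. The sites are chr1:4648577-4648591 (PSK1, plus strand), chr2:9738045-9738059 (PSK2, plus strand), chr3:16291403-16291417 (PSK3, minus strand), chr3:18466225-18466239 (PSK4, plus strand) and chr5:26352026-26352040 (PSK5, plus strand).
PSK1: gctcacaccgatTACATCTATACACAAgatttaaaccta
PSK2: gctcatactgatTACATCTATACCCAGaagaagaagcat
PSK3: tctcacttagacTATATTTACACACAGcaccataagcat
PSK4: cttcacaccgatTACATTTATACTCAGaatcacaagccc
PSK5: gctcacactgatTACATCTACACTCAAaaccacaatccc
Any pair of PSK genes differs at 2 to 4 of these 15 bases and at 0 of 5 residues. The values below thus concern 5 genes that specify the same active peptide, and 4 genes whose active peptides differ.

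Among RGF1 to RGF4, RGF4 had the most counts, 96 in uncut tips. In the CNQX series RGF4 had 16.5 and 15 CPM in the uncut tips, then 0 CPM at 30 min, 1.42 CPM at 4 h, 1.88 CPM at 14 h and 2.90 CPM at 24 h. In the mock series RGF4 had 8.18 and 4.89 CPM in the uncut tips, then 0 CPM at 30 min, 2.18 CPM at 4 h, and 0 CPM at both 14 h and 24 h. Every cut library was below every uncut one, and with both treatments together RGF4 was 10.4-fold lower in cut roots (95% exact interval 6.19 to 18.7, which covers counting error only). Its late counts, 4 and 6 at 14 h and 24 h, all came from CNQX libraries.
RGF2 encodes a peptide that acts redundantly with those of RGF1 and RGF3 in the root meristem. Its counts were 33 and 15 in the CNQX uncut tips, 2 and 2 in the mock uncut tips, 2 in the mock 14 h library and 0 in the other 7 cut libraries. The highest cut value, 0.865 CPM, lay above both mock uncut values, 0.606 and 0.815 CPM, so that cut and uncut libraries overlapped. RGF3 had 6 and 11 counts in the CNQX uncut tips, 2 and 2 in the mock uncut tips, 1 in the CNQX 24 h library and 0 in the other 7 cut libraries, which made it 38.8-fold lower in cut roots (6.24 to 1605). Its cut and uncut CPM values did not overlap. RGF1 was at the limit of detection throughout, with 7 counts over the 8 cut libraries and 4 over the 4 uncut ones, a ratio of 0.947 (0.241 to 4.41).
Summed over RGF1 to RGF4, both 30 min libraries and the mock 24 h library had no count, all 8 cut libraries held 27 counts and the 4 uncut libraries held 173. Of the 32 values of these genes in cut libraries, 23 were 0.

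**Figure D1:**
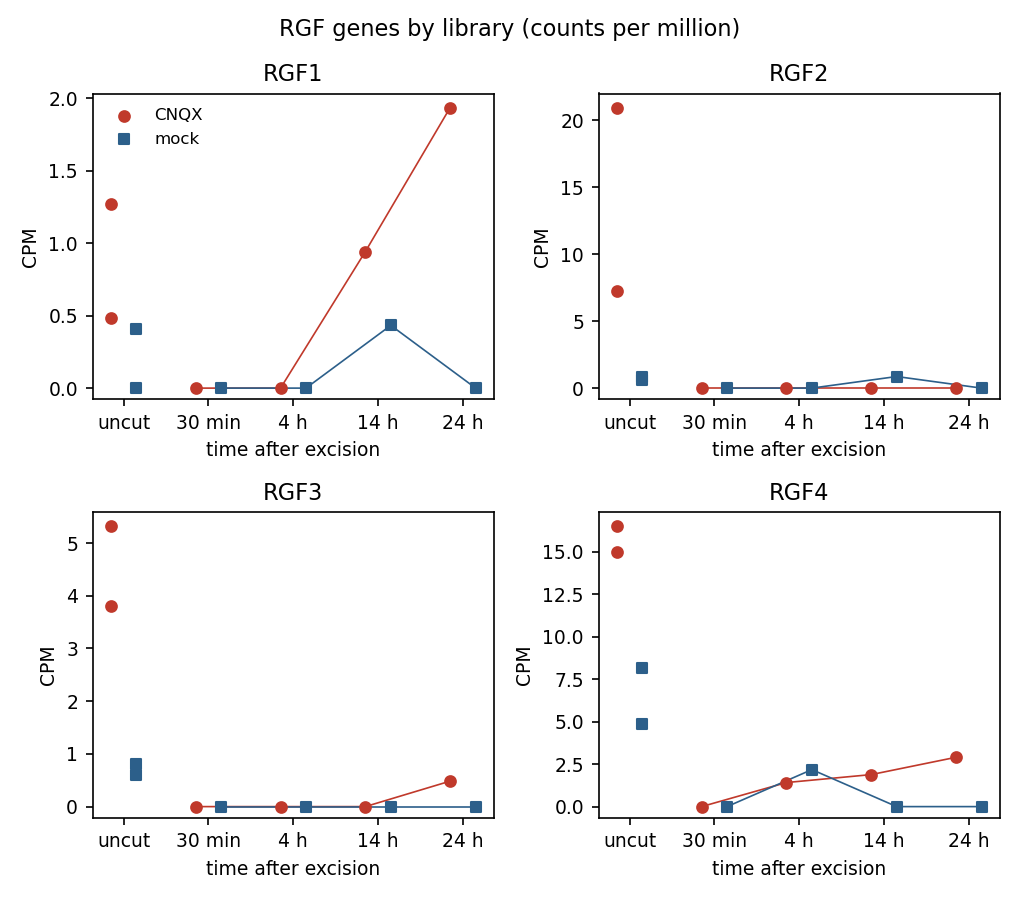
CPM (vertical axes) of RGF1, RGF2, RGF3 and RGF4 in each of the 12 libraries, by stage (horizontal axes: uncut, 30 min, 4 h, 14 h, 24 h), with CNQX as red circles and mock as blue squares; lines join the single cut libraries of each treatment. All 4 genes are at 0 at 30 min, and RGF4 stays at or below 2.90 CPM in cut roots, against 4.89 to 16.5 CPM in uncut tips.

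The PSK genes showed different time courses. PSK5 had 0 and 0.484 CPM in the CNQX uncut tips, then 4.54 CPM at 30 min, 10.8 CPM at 4 h, 15.1 CPM at 14 h and 25.6 CPM at 24 h. In mock roots PSK5 had 0 CPM in both uncut tips, then 10.7 CPM at 30 min, 4.90 CPM at 4 h, 21.2 CPM at 14 h and 81.3 CPM at 24 h. All 8 cut libraries lay above all 4 uncut ones, where the gene had a single count in all. Against that count the ratio was 66.0 (10.97 to 2693) at 30 min, 73.2 (12.2 to 2981) at 4 h, 176 (30.6 to 7018) at 14 h and 606 (108 to 24014) at 24 h. All 4 ratios share the same uncut count, which sets the width of their intervals; the counts themselves were 30, 32, 81 and 300 over the 2 libraries of each time.
PSK2 was high at 30 min. It had 0 and 2.90 CPM in the CNQX uncut tips, then 65.2 CPM at 30 min, 1.89 CPM at 4 h, 3.30 CPM at 14 h and 3.39 CPM at 24 h. In mock roots it had 0 CPM in both uncut tips, then 41.1 CPM at 30 min, 2.18 CPM at 4 h, 6.49 CPM at 14 h and 1.32 CPM at 24 h. Both 30 min libraries thus stood above every other library, and pooled over treatments the 30 min level was 84.7-fold the uncut level (38.3 to 233), against 3.05-fold at 4 h (0.928 to 10.7).
PSK4 was low until 14 h. It had 0 and 0.484 CPM in the CNQX uncut tips, then 0 CPM at 30 min, 2.83 CPM at 4 h, 6.59 CPM at 14 h and 5.80 CPM at 24 h. In mock roots it had 0 and 0.815 CPM in the uncut tips, then 2.25 CPM at 30 min, 1.63 CPM at 4 h, 4.33 CPM at 14 h and 35.9 CPM at 24 h. Of its 158 counts in cut roots, 109 came from the mock 24 h library alone, the library that stood apart. Cut and uncut PSK4 values overlapped because the CNQX 30 min library was at 0.
PSK1 was the one PSK gene with 27 or more counts in every library. It had 17.1 and 13.5 CPM in the CNQX uncut tips, then 24.4 CPM at 30 min, 31.6 CPM at 4 h, 30.1 CPM at 14 h and 16.4 CPM at 24 h. In mock roots it had 8.78 and 17.1 CPM in the uncut tips, then 18.6 CPM at 30 min, 30.5 CPM at 4 h, 17.7 CPM at 14 h and 11.8 CPM at 24 h. Cut and uncut ranges overlapped, with a pooled ratio of 1.67 (1.37 to 2.06). PSK3 stayed between 0 and 3.46 CPM, with at most 8 counts in a library, and its pooled ratio of cut to uncut was 3.52 (1.22 to 13.9).

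**Figure D2:**
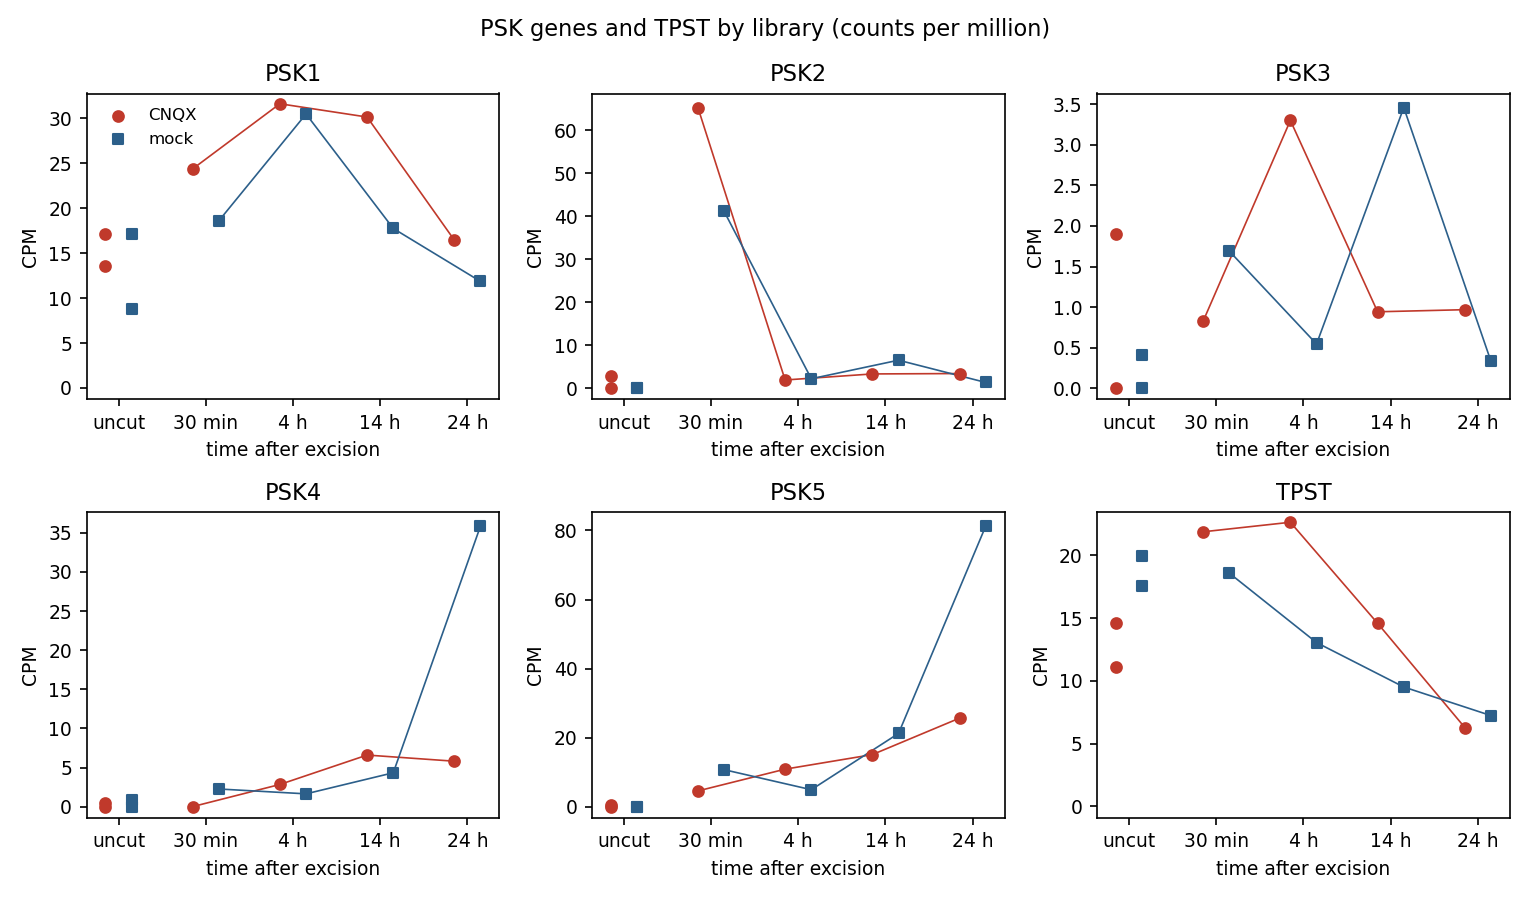
CPM (vertical axes) of PSK1 to PSK5 and TPST in each library, by stage (horizontal axes), drawn as in the plot of the RGF genes. PSK2 peaks at 30 min in both treatments (65.2 CPM in CNQX and 41.1 CPM in mock), and PSK5 and PSK4 are highest in the mock 24 h library, at 81.3 and 35.9 CPM.

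Since the pentapeptide is the same, the gene that supplied most of its transcripts could be followed as a share of all PSK counts, with exact binomial intervals that cover counting error only. In the uncut tips PSK1 held 90.0% and 77.8% of PSK counts with CNQX and 100% and 93.3% with mock. At 30 min PSK2 held 68.7% (62.3 to 74.6) with CNQX and 55.3% (46.4 to 64.0) with mock. At 4 h PSK1 again held the most, 62.6% with CNQX and 76.7% with mock. At 14 h PSK1 held 53.8% (44.4 to 63.0) with CNQX and 33.3% (25.1 to 42.4) with mock, and PSK5 held 26.9% (19.2 to 35.8) with CNQX and 39.8% (31.1 to 49.1) with mock. The intervals of PSK1 and PSK5 in the mock 14 h library overlap, and after division by transcript length their shares there were 35.5% and 34.0%. At 24 h PSK5 held 49.1% (39.3 to 58.9) with CNQX and 62.2% (57.2 to 67.0) with mock, in the library that stood apart. In the CNQX 24 h library PSK1 held 31.5% (22.9 to 41.1), an interval that overlaps that of PSK5. After division by transcript length, the shares of PSK5 and PSK1 there were 44.8% and 35.9%. The summed PSK level was 39.7 to 131 CPM in cut libraries and 8.78 to 19.04 CPM in uncut libraries, 1289 counts in the cut libraries and 140 in the uncut ones.

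**Figure D3:**
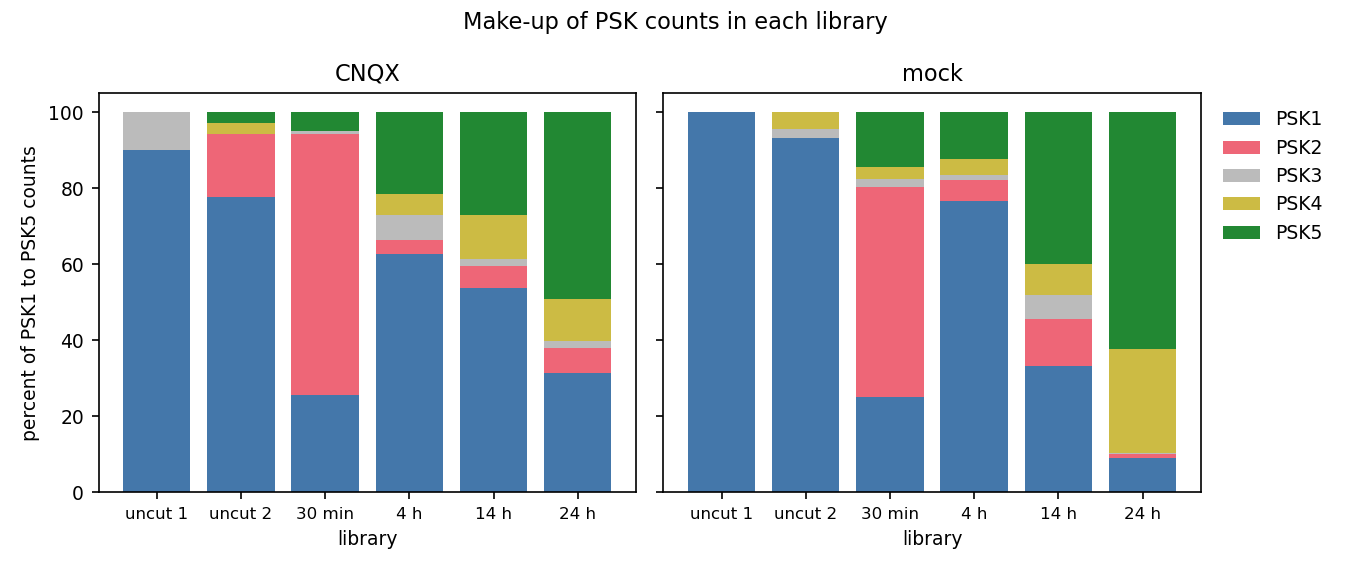
Share of all PSK counts (percent, vertical axis) held by each of PSK1 to PSK5 in each of the 12 libraries (horizontal axis); each bar sums to 100. PSK1 holds 77.8% to 100% in uncut tips, PSK2 leads at 30 min, PSK1 at 4 h and PSK5 at 24 h. With CNQX at 24 h the binomial intervals of PSK5 and PSK1 overlap.

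TPST, on chr1:2489409-2493327 (minus strand, 13 exons), had 14.6 and 11.1 CPM in the CNQX uncut tips, then 21.9 CPM at 30 min, 22.6 CPM at 4 h, 14.6 CPM at 14 h and 6.29 CPM at 24 h. In mock roots it had 17.6 and 20.0 CPM in the uncut tips, then 18.6 CPM at 30 min, 13.1 CPM at 4 h, 9.52 CPM at 14 h and 7.24 CPM at 24 h. The enzyme gene was thus read in every library, with 13 or more counts, and its cut and uncut ranges overlapped, with a pooled ratio of 0.870 (0.708 to 1.07).

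To compare levels between genes, CPM was divided by transcript length in kilobases. In cut roots the order of these per-length levels was PSK1 (25.7 ± 8.53 CPM per kb, SD over n = 8 libraries of 2 treatments and 4 times), PSK2 (23.9 ± 36.9), PSK5 (19.8 ± 22.8), TPST (7.07 ± 3.16), PSK4 (4.51 ± 7.13), PSK3 (2.06 ± 1.67), RGF4 (1.1 ± 1.25), RGF1 (0.719 ± 1.22), RGF2 (0.154 ± 0.435) and RGF3 (0.0739 ± 0.209). No neighbours in this order differed by more than the larger of their SDs. In uncut tips the order of per-length levels was PSK1 (16.0 ± 4.48, n = 4), RGF4 (11.7 ± 5.82), RGF2 (10.5 ± 13.6), TPST (7.85 ± 1.89), RGF3 (3.22 ± 2.83), PSK2 (1.11 ± 2.22), RGF1 (0.939 ± 0.923), PSK3 (0.791 ± 1.24), PSK4 (0.198 ± 0.243) and PSK5 (0.110 ± 0.220). Among neighbours there, TPST and RGF3 alone differed by more than the larger SD. PSK1 headed both orders, RGF4 and RGF2 stood next to it in uncut tips, and PSK2 and PSK5 stood next to it in cut roots.

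A count model over all 12 libraries (edgeR's quasi-likelihood test, Benjamini-Hochberg adjustment over 16820 genes, threshold 0.05) included 7 of the 10 genes. RGF1, RGF3 and PSK3 had too few counts. In this fit the mean of the 4 times minus uncut was -5.43 (log2) for RGF2, -4.34 for RGF4, -0.23 for TPST, 0.64 for PSK1, 4.33 for PSK2, 3.45 for PSK4 and 6.85 for PSK5. These sizes repeat the contrast on which the set was chosen and carry no test. RGF2 and RGF4 reached 10 counts in uncut tips alone, with at most 2 and 6 counts in a cut library, and so entered the fit through the group where they are high. Cut values lay wholly above uncut ones for PSK5, as for 4.88% of genes tested, and wholly below for RGF3 and RGF4, as for 3.95% of loci with a count. Fitted sizes for genes with libraries at 0 depend on the prior count and are no bounds.

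Late cut libraries (14 h and 24 h) were compared with early ones (30 min and 4 h). Uncut levels do not enter this difference, although the fit to all 12 libraries takes part of its spread and scaling from the uncut tips. Each SD of CPM in this comparison is over single libraries that mix both treatments and both times, not over replicates. PSK5 averaged 35.8 ± 30.6 CPM at late times and 7.75 ± 3.50 CPM at early times (SD, n = 4 each). It rose by 2.03 ± 0.47 (log2, standard error, edgeR adjusted p = 0.0108). PSK4 averaged 13.1 ± 15.2 CPM at late times and 1.68 ± 1.22 CPM at early times, and rose by 2.84 ± 0.84 (edgeR adjusted p = 0.0307). Over all genes 19.9% passed and 13.2% passed upward. PSK4 reached 10 counts in late cut libraries alone. It so entered the fit through the group where it is high, and its p value is no independent support. PSK5 reached 10 counts in 3 of the 4 early libraries too. With every locus that had a count kept in the fit, edgeR adjusted p was 0.000641 for PSK4 and 0.000115 for PSK5. These come from the same counts and are no further support. Late values of both lay wholly above the early ones, as for 11.9% of genes tested. The median of all genes was 0.05 (log2).
TPST had the opposite sign, with 9.41 ± 3.71 CPM at late times and 19.04 ± 4.36 CPM at early times, a difference of -0.92 ± 0.35 that did not pass (edgeR adjusted p = 0.0788). PSK2 averaged 3.62 ± 2.14 CPM at late times and 27.6 ± 31.1 CPM at early times, a difference of -1.49 ± 0.63 (edgeR adjusted p = 0.123), and passed when genes of low count were kept in the fit (edgeR adjusted p = 0.0401). PSK1 was at -0.38 ± 0.33 (edgeR adjusted p = 0.468) and RGF4 at 1.75 ± 1.31 (edgeR adjusted p = 0.387). RGF2 could not be fitted, with 2 counts in the 8 cut libraries.
Both calls rested on few libraries. Without the mock 24 h library PSK4 was at 2.04 (edgeR adjusted p = 0.250) and PSK5 at 1.66 (edgeR adjusted p = 0.0588). PSK4 was also not called without the CNQX 30 min (adjusted p = 0.0979), CNQX 14 h (0.186) or mock 4 h library (0.116), and PSK5 not without the CNQX 14 h (0.0568) or mock 4 h library (0.0526). Summed differentiated root markers were 84.9 to 614 CPM in late and 15.3 to 124 CPM in early libraries. Their lowest late sum, 84.9 CPM, was in the mock 24 h library, the one that stood apart, where PSK4 and PSK5 were highest. Whether differentiated cells had a part in the PSK4 and PSK5 values was not tested.

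Steps between consecutive times, a comparison added after the values were seen, located the change in PSK2. Apart from the 30 min libraries, with 158 and 73 counts, PSK2 reached 10 counts in the mock 14 h library alone, with 15. It thus entered the fit mainly through the group where it is high, and its p values here describe a peak already seen. At 4 h against 30 min PSK2 fell by 4.69 on the log2 scale (standard error 0.87, edgeR adjusted p = 0.0436, 2 libraries a time), a step at which 0.333% of genes fell. The size was -4.93 to -4.43 in fits that left out 1 library, but the call was lost in 6 of 12 of them: without the 30 min, 4 h or 14 h library of CNQX (adjusted p = 0.715, 0.290 and 0.0537) or of mock (0.171, 0.0990 and 0.0562). No gene of the set passed at 14 h against 4 h, where 0.957% of genes did, or at 24 h against 14 h, where 0.0238% did. PSK5 and PSK4 were at 1.55 ± 0.63 and 1.63 ± 1.07 for the last step (edgeR adjusted p = 0.434 and 0.646).

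**Figure D4:**
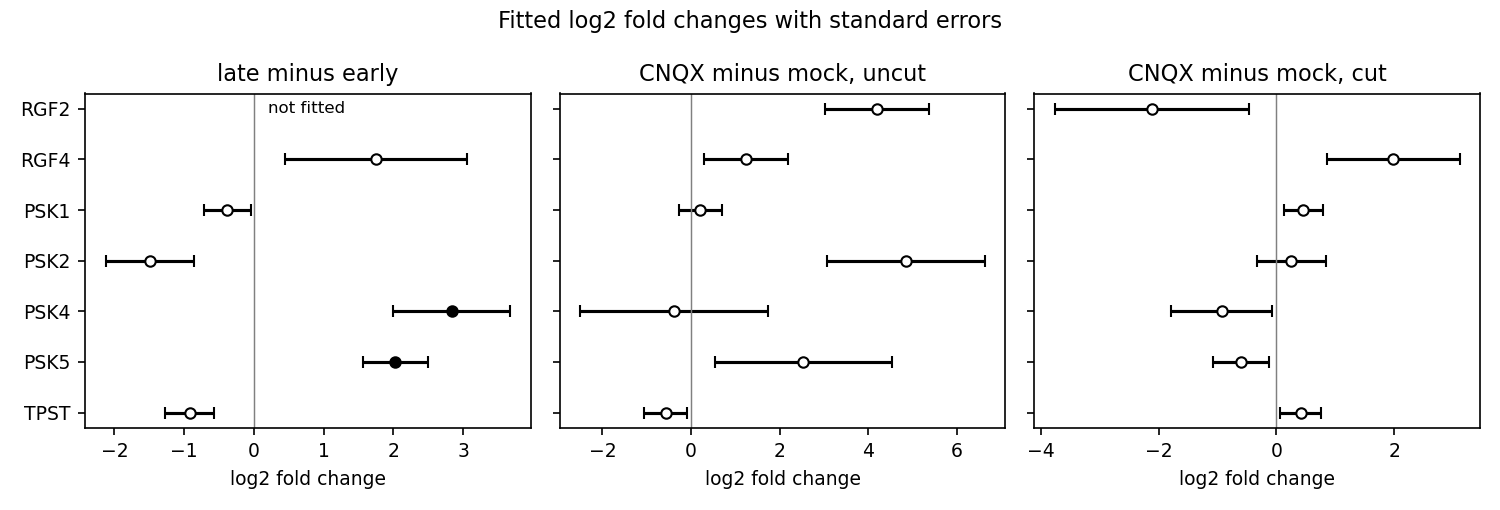
Log2 fold changes (horizontal axes, points with standard errors) of the 7 genes tested, for late minus early cut roots, CNQX minus mock in uncut tips and CNQX minus mock in cut roots; filled points had an adjusted p under 0.05 and open points did not. PSK5 (2.03) and PSK4 (2.84) are filled in late minus early, and no point is filled in either CNQX panel.

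CNQX was the treatment the study set against mock, and it was not used to choose these genes. In uncut tips, RGF1, RGF2, RGF3 and RGF4 were higher in CPM in both CNQX libraries than in both mock libraries. The same held for 12.7% of loci with a count, with no floor applied. For RGF1 it rests on values under the floor, 1.27 and 0.484 CPM with CNQX against 0 and 0.407 CPM with mock. RGF2 had 20.9 and 7.26 CPM with CNQX, against 0.606 and 0.815 CPM with mock, 18.7-fold higher in pooled counts (6.86 to 71.5). RGF3 had 3.81 and 5.32 CPM with CNQX, against 0.606 and 0.815 CPM with mock, 6.63-fold higher (2.16 to 27.1). RGF4 had 16.5 and 15 CPM with CNQX, against 8.18 and 4.89 CPM with mock, 2.28-fold higher (1.49 to 3.52). RGF1 had 2 and 1 counts with CNQX, against 0 and 1 with mock, all under the floor of 3 counts, a ratio of 4.68 (0.376 to 246). These intervals hold counting error alone, and no gene of the set passed the test that also holds the spread between libraries, nor did any of all 16820 genes (0%). RGF2 was at 4.20 ± 1.17 (log2) and RGF4 at 1.24 ± 0.95 (edgeR adjusted p = 0.978 for both). RGF2 reached 10 counts in the CNQX uncut tips alone, and so entered the fit through the group where it is high. PSK2 was at 4.85 ± 1.79 (edgeR adjusted p = 0.978), which rests on 6 counts in a single CNQX library, with 0 in the other 3 uncut tips. At an unadjusted p under 0.05 edgeR had 629 of all genes, and DESeq2 called 0 genes.
TPST went the other way in uncut tips, with 14.6 and 11.1 CPM with CNQX, against 17.6 and 20.0 CPM with mock (-0.57 ± 0.48). Its ranges did not overlap, as for 15.2% of genes tested on that side. PSK1 (0.21 ± 0.49), PSK4 (-0.38 ± 2.12) and PSK5 (2.54 ± 2.0) overlapped between treatments. Root cap markers summed to 71.1 and 188 CPM in the CNQX uncut tips, against 57.2 and 106 CPM in the mock ones, and niche markers to 146 and 267 CPM with CNQX, against 153 and 160 CPM with mock. Whether the cell types taken had a part in the RGF values was not tested.

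In cut roots CNQX was compared with mock at each time. Of the 7 genes tested 0 passed, and 0% of all genes did. At an unadjusted p under 0.05 edgeR had 327 genes, none of the set among them, and DESeq2 called 0. PSK1 was higher with CNQX at all 4 times (0.46 ± 0.34) and TPST at 3 of 4 (0.41 ± 0.35). PSK5 was lower with CNQX at 3 of 4 times (-0.60 ± 0.48), PSK4 was at -0.93 ± 0.86, PSK2 at 0.26 ± 0.59, RGF4 at 1.98 ± 1.13 and RGF2 at -2.11 ± 1.65, and all 7 had an edgeR adjusted p of 1. The difference between the CNQX effects in cut and in uncut roots was also called for 0% of genes by edgeR (390 at an unadjusted p under 0.05) and for 0 by DESeq2. RGF2 was at -6.32 ± 2.49 and PSK2 at -4.60 ± 1.89 for that difference; both rest on the CNQX uncut tips, and PSK2 was at 0.24 without the library that holds its 6 counts.
Split by time, CNQX had 0% of genes called in early cut roots (184 at an unadjusted p under 0.05; 0 in DESeq2), and 0% in late cut roots (1669, RGF4 among them; 136 in DESeq2, none of the set). The late effect minus the early one was called for 0% of genes (1203, RGF4 among them; 3 in DESeq2, none of the set). RGF4 had 10 counts in the late CNQX libraries and 0 in the late mock libraries. With the mock group set at 3 counts, the CNQX level was 4.57-fold higher, which is not a lower bound. The fitted difference did not pass (edgeR adjusted p = 0.420). At 24 h PSK5 was 2.93-fold lower with CNQX (2.17 to 4.02) and PSK4 5.72-fold lower (3.14 to 11.4), by counting error alone and with 1 library each. The fitted late effects were -0.99 ± 0.62 for PSK5 (edgeR adjusted p = 0.630) and -1.01 ± 1.11 for PSK4 (edgeR adjusted p = 0.803). They rested on the mock 24 h library: without it PSK5 was at -0.38 and PSK4 at 0.72.

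Other genes of these pathways were taken from fixed lists. Their counts stand against all genes tested, of which 13.2% rose and 6.74% fell late against early, and 13.6% rose and 11.9% fell in cut against uncut roots (25.5% in either direction). With lists of 3 to 6 genes, a count of 1 is near these shares. Of 5 further RGF genes 2 had enough counts, and 1 rose in late against early cut roots. RGF7 (AT3G02240) had 12.7 and 10.2 CPM in the late CNQX libraries and 19.04 and 46.7 CPM in the late mock ones, against 0 and 10.8 CPM in the early CNQX and 0 and 3.26 CPM in the early mock libraries. The fitted difference was 5.04 ± 1.12 (edgeR adjusted p = 0.00865). Like RGF1 to RGF4, it had no count at 30 min, so the size of this fit is no bound. RGF8 was at 3.72 ± 1.46 (edgeR adjusted p = 0.0972).
The list of leucine-rich repeat receptor kinases held 5 loci, all tested. In late against early cut roots 1 rose and 2 fell, with a median of 0.06 (log2), and in cut against uncut roots 2 fell and 0 rose, with a median of -0.70, against 0.02 over all genes. AT4G26540 had 91.7 CPM with CNQX and 98.0 CPM with mock at 30 min, against 11.5 to 42.4 CPM in the other 10 libraries, and was at -1.55 ± 0.29 late against early (edgeR adjusted p = 0.00287). SKM2 (AT5G56040) was at -1.36 ± 0.30 late against early (edgeR adjusted p = 0.00692). AT1G34110 rose by 1.24 ± 0.35 late against early (edgeR adjusted p = 0.0254) and was at -1.88 ± 0.27 in cut against uncut roots (edgeR adjusted p = 0.000942). AT5G48940 had 3.95 to 20.1 CPM in cut and 51.4 to 71.6 CPM in uncut libraries, -2.24 ± 0.35 (edgeR adjusted p = 0.00145).
In the list of RGF response genes 3 of 5 fell in cut against uncut roots, with a median of -2.43, and 0 of 5 passed late against early. The PLETHORA genes PLT1 and PLT2 were at -5.85 ± 0.91 (edgeR adjusted p = 0.00197) and -2.64 ± 0.74 (edgeR adjusted p = 0.0218). PLT1 reached 10 counts in uncut tips alone, with at most 6 counts in a cut library. It so entered the fit through the group where it is high, and its p value is no independent support. The PLATZ-family transcription factor locus AT2G12646 was at -2.43 ± 0.53 (edgeR adjusted p = 0.00681), with 0.329 to 45.2 CPM in cut and 76.2 to 95.3 CPM in uncut libraries. The summed root cap markers were lower in the same libraries, as given above, and their part in these values was not tested.

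On the PSK side, 1 of 5 receptor and partner genes fell in cut against uncut roots and 0 passed late against early. The receptor gene PSKR2 was at -0.91 ± 0.28 (edgeR adjusted p = 0.0318), with its lowest values, 5.37 CPM with CNQX and 4.51 CPM with mock, at 30 min. The main receptor gene PSKR1 was at 0.88 ± 0.31 and did not pass (edgeR adjusted p = 0.0514). The co-receptor genes BAK1, SERK1 and SERK2 did not pass in either comparison (0 of 3).
Of 6 genes of other sulfated peptides and their receptors 3 had enough counts, and 2 rose in both comparisons. PSY1, a sulfated growth peptide gene that also depends on TPST, had 10.4 and 18.4 CPM in the late CNQX and 10.8 and 22.0 CPM in the late mock libraries, against 1.69 to 3.30 CPM in the 4 early ones, and rose by 2.58 ± 0.51 (edgeR adjusted p = 0.00413). It also rose in cut against uncut roots, by 1.74 ± 0.50 (edgeR adjusted p = 0.0230). PSY1 reached 10 counts in late cut libraries alone, with at most 7 counts in an early or uncut library. It so entered the fit through the group where it is high, and neither p value is independent support. GSO1, a receptor kinase gene of the endodermal barrier, rose by 1.78 ± 0.34 late against early (edgeR adjusted p = 0.00340), beside the rise of the differentiated root markers given above. Of the precursor proteases 1 of 3 had enough counts and 0 passed, and of the 3 genes that supply or recycle the sulfate donor 0 passed, in late against early as in cut against uncut roots. No gene of these lists passed in a CNQX comparison.

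The genes most like RGF4, PSK5 and TPST over the 12 libraries were found by Pearson's r of log2 CPM among 15940 genes. Libraries, depth and the cut and uncut groups are shared by all points, so these r values are descriptions. For RGF4 they were PLT2 (r = 0.950, Spearman's rho = 0.940), MORF1 (AT4G20020; r = 0.943, rho = 0.912) and AT5G01350 (r = 0.938, rho = 0.940). PLT2 had 17.8 and 10.6 CPM in the CNQX uncut tips and 7.87 and 3.67 CPM in the mock ones, and it too was at 0 in the mock 30 min and mock 24 h libraries. For PSK5 they were PUB9 (AT3G07360; r = 0.985, rho = 0.979), AT1G23390 (r = 0.979, rho = 0.958) and AT5G20050 (r = 0.979, rho = 0.979). For TPST they were AT5G36290 (r = 0.919, rho = 0.888), AT3G57890 (r = 0.919, rho = 0.853) and AT5G41950 (r = 0.918, rho = 0.902).

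**Figure D5:**
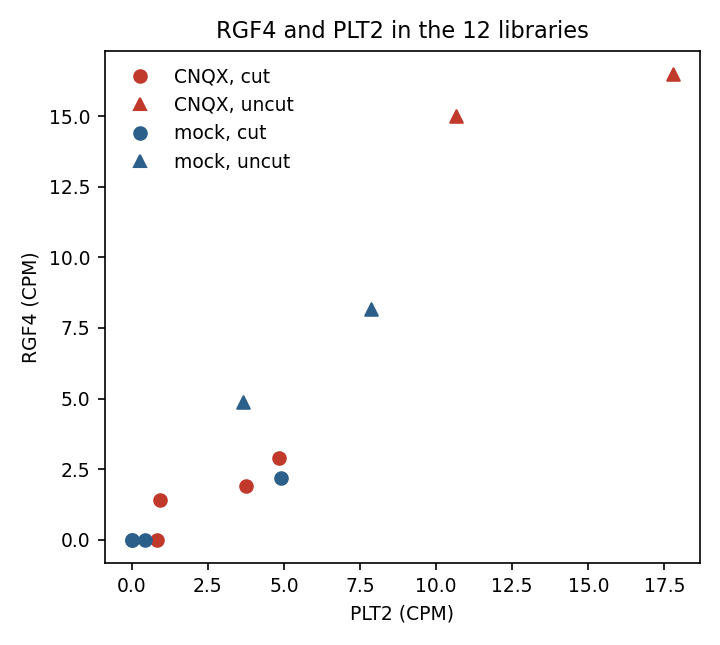
CPM of PLT2 (horizontal axis) and RGF4 (vertical axis) in the 12 libraries, CNQX in red and mock in blue, cut libraries as circles and uncut tips as triangles. The 4 uncut tips lie apart at 4.89 to 16.5 CPM of RGF4, with the CNQX pair above the mock pair, and the 8 cut libraries lie at or below 2.90 CPM of RGF4.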

How the data were processed

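The authors deposited raw counts for each locus and library, not normalized; the joint table of the authors held the same counts as the 12 files of single libraries. HISAT2, DESeq2 and the TAIR10 build are named in the submitters' processing notes; the counting tool, its strand setting and all versions were not given in the sources used here. RNA was amplified before library construction, per the labels' protocols, and no molecular identifiers are named, so intervals cover counting error only. Names and sequences came from RefSeq TAIR10.1, which matched 32548 of 32833 loci.

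The model was edgeR 4.0.16 in R 4.3.3 (TMM scaling, filterByExpr with a minimum count of 10, quasi-likelihood F test), fitted to all 12 libraries, with the 5 stages, the CNQX effect in uncut tips and the CNQX effect in cut roots as 7 coefficients, which left 5 residual degrees of freedom. The CNQX effect in cut roots was taken as equal at all times; a second fit split it into early and late. Benjamini-Hochberg adjustment ran over 16820 genes (threshold 0.05), and a standard error is the absolute log2 fold change divided by the root of F. Pooled ratios use TMM-scaled library sizes and exact 95% binomial intervals, with a floor of 3 counts over a group at 0. DESeq2 1.42.0 and other settings served as alternatives.

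The 10 genes, the pathway lists and the marker lists were chosen with earlier results of these data known. All 10 genes are named; of the lists, each gene called and some of the highest in level; for likeness, the 3 genes of highest r with an average log2 CPM of at least 2.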

Additional observations from a re-analysis of the deposited data

How the results depend on the processing

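Alternatives were other scaling (RLE), DESeq2, no filter on low counts, a minimum count of 30, organelle loci left out, the replicate number as a block, and each of the 12 libraries left out. No gene of the set passed in a CNQX comparison under any of these. The count of genes of the set called late against early was 2, but 3 with no filter, where PSK2 passed too, 1 with a minimum count of 30, and 0 to 2 without 1 library; for 4 h against 30 min it was 1, but 0 with a minimum count of 30, and 0 to 1 without 1 library. All genes called late against early were 3348, and 1389 to 4062 without 1 library.
All cut libraries carry replicate number 1, so that a pairing can be checked in the uncut groups alone, where same-numbered libraries deviated together with r = 0.357 in 2 pairs, which does not show a pairing. With the replicate block PSK4 was at 2.84 (edgeR adjusted p = 0.0255) and PSK5 at 2.03 (edgeR adjusted p = 0.00794), and genes called were 1 for CNQX in cut roots, 8 for CNQX in late cut roots, 152 for 4 h against 30 min, 274 for 14 h against 4 h and 15 for 24 h against 14 h.
With no filter, genes called were 10 for CNQX in cut roots, 10 in uncut tips, 2 for the difference of these, 4 in early and 197 in late cut roots, 35 for late minus early CNQX effects, and 429, 773 and 373 for the 3 consecutive steps. In DESeq2 they were 136 in late cut roots, 3 for late minus early CNQX effects, and 194, 268 and 124 for the steps; with a minimum count of 30 the last step had 0. Without 1 library, late CNQX calls were 0 to 5, and the steps had 2 to 130, 0 to 252 and 0 to 185. The causes were not tested.
Signs that turned without 1 library were those of PSK2 for CNQX in cut roots (-0.018 to 0.64), PSK1 and PSK4 for CNQX in uncut tips (-0.28 to 0.82 and -2.96 to 2.53), PSK2 for the difference of CNQX effects (-5.47 to 0.24), RGF4 late against early (-0.19 to 2.77) and PSK4 for CNQX in late cut roots (-2.58 to 0.72); none of these was called. Depth limits RGF1, RGF3 and PSK3 most, which had at most 11 counts in a library.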

Other observations

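The genes in this paragraph were singled out after their values were seen, and no explanation is offered. PSY1R (AT1G72300), the receptor kinase gene named for the sulfated peptide PSY1, had 8.94 and 10.6 CPM in the late CNQX libraries, against 24.2 and 42.1 CPM in the late mock libraries. The early libraries had 6.19 and 15.6 CPM with CNQX, against 9.01 and 10.3 CPM with mock. Late against early it was at 0.98 ± 0.46 and did not pass (edgeR adjusted p = 0.156). AT2G14750, the first gene of the sulfate donor list, had 121 CPM with CNQX and 76.6 CPM with mock at 30 min, and 27.8 to 46.2 CPM in the 6 later cut libraries. Uncut tips had 73.0 and 21.3 CPM with CNQX, against 49.7 and 21.6 CPM with mock, so that its replicates of 1 group differed more than its treatments did. WOX5, the quiescent centre factor gene, had 4.24 and 3.87 CPM in the late CNQX and 3.03 and 5.27 CPM in the late mock libraries, against 0 to 1.42 CPM in the early ones.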
